A study of Homo sapiens with 8 samples.

Results

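The genes examined here encode the extracellular matrix and the enzymes that degrade it. They were chosen by symbol: every collagen chain (COL), laminin chain (LAM), matrix metalloproteinase (MMP) and tissue inhibitor of metalloproteinases (TIMP), together with a written set of matrix glycoproteins, proteoglycans and basement membrane linkers. The rule uses no measured value. It gave 61 genes of the 16169 in either deposited table, 60 of 16040 in the knockout table and 54 of 14955 in the siRNA table, and 53 were in both. DCN, VCAN, SPARC and TNC were also on the list and were found in neither table.

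RNA-seq was performed on 8 libraries of Hep3B, a human liver cancer cell line, with 2 libraries in each of 4 groups. The first comparison set unmodified Hep3B (wild type) against Hep3B SOX4-/- cells, in which the transcription factor SOX4 had been edited by CRISPR/Cas9. The second set Hep3B transfected with a control siRNA, named scramble in the study, against Hep3B transfected with STAT6 siRNA, which targets the transcription factor STAT6. Both asked what each factor does to gene expression in the same cell line. The study describes knockout lines #1 and #2 and states that knockout cells were kept in puromycin, which it does not state for Hep3B, so the edit and the antibiotic cannot be told apart here. Whether knockout libraries 1 and 2 are those lines is not stated. Nothing says that libraries with the same label came from separate cultures, so p-values measure only the spread between these libraries. Library totals ran from 16266282 to 25353113 expected counts. Levels are given as CPM, counts scaled to a common library size, after TMM normalization, which allows for differences in library composition.

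The extracellular matrix is the protein network outside cells. Collagens and fibrillin microfibrils carry load, basement membranes of laminin, collagen IV, nidogen and perlecan underlie epithelia, and proteoglycans and fibulins organise the fibres. Metalloproteinases cut these proteins and their tissue inhibitors block them. In the liver most interstitial matrix is made by stellate cells and fibroblasts, while hepatocytes secrete plasma fibronectin and a limited set of collagens. In bulk RNA, fewer cells making a transcript and less transcript per cell cannot be told apart.

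The targeted genes were read first. The SOX4 transcript stood at 799 and 266 CPM in Hep3B libraries 1 and 2 and at 298 and 302 CPM in the SOX4 knockout libraries, so its level does not check the knockout label (log2 fold change -0.83, edgeR adjusted p = 0.372). STAT6 stood at 32.0 and 13.2 CPM in Hep3B and at 2.76 and 2.20 CPM in SOX4 knockout, a fall of both libraries below both controls (log2 fold change -3.18, edgeR adjusted p = 0.0275). In the siRNA table STAT6 was 42.5 and 31.4 CPM with control siRNA and 9.92 and 5.98 CPM with STAT6 siRNA (log2 fold change -2.22, unadjusted p = 0.00834, edgeR). This fall did not pass after adjustment over all genes tested. Hepatocyte markers checked the cell line: 9 of 9 listed markers were measured, and their summed level was 16200 and 11640 CPM in Hep3B against 52190 and 31160 CPM in SOX4 knockout, and 14250 and 16210 CPM with control siRNA against 15820 and 20490 CPM with STAT6 siRNA. By edgeR, 3 of these 9 were higher in SOX4 knockout at an adjusted p below 0.05, where 4.50% of all genes tested were called higher. The 1 with a negative log2 fold change was AFP (-0.76). Of 8 fibroblast and stellate cell markers 5 were measured, with a summed level of 11.5 and 14.5 CPM in Hep3B and 16.7 and 20.8 CPM in SOX4 knockout. PDGFRB among them rose from 2.84 and 1.27 CPM to 9.88 and 13.9 CPM (edgeR adjusted p = 0.0494), while 3 of the 5 had a negative log2 fold change. The 1 measured endothelial marker of 6, PECAM1, stayed below 1 CPM in every library. The 4 measured leukocyte markers of 6 summed to 44.3 and 30.1 CPM in Hep3B and to 77.3 and 103.5 CPM in SOX4 knockout, mostly from CD68. The part of these shifts in the results below was not tested.

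In SOX4 knockout cells 17 matrix genes rose and 1 fell. The rises included transcripts of the small proteoglycan lumican (LUM), the secreted matrix protein CCDC80 and chains of collagens II, V, VI, VII, VIII and XVI. Also higher were the fibulins EFEMP1 and EFEMP2, fibrillin 1, laminin beta 2, agrin, TIMP1, MMP24 and MMP7. The fall was that of collagen XIV (COL14A1). For collagens V and VI only the chains COL5A2, COL6A1 and COL6A2 were found in either table. Of the 55 members with enough counts to be tested, 18 were called at an adjusted p below 0.05 (edgeR's quasi-likelihood test, p-values adjusted by Benjamini-Hochberg over all 14415 genes tested), where 5.89% of all genes were called. By direction, 4.50% of all genes were called higher and 1.39% lower. These are also the shares to set beside the counts by class below. The median log2 fold change was 1.18 over the tested members and 0.01 over all genes tested. A gene nearly silent in Hep3B can pass the filter only through the knockout libraries and so has to differ. With a filter of at least 10 counts in every library, 13 of 45 tested members were called against 4.0% of all genes. COL14A1, COL16A1, COL2A1 and MMP7 had fewer counts than that in a library and were not tested, and AGRN was tested with a log2 fold change of 2.35 and was not called (edgeR adjusted p = 0.0504).

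Both knockout libraries lay above both Hep3B libraries for 31 of the 55 tested members and below them for 6, where the shares over all genes tested were 30.6% and 27.4%. DESeq2 called 23 members, which held 17 of the 18 and not MMP7. The calls rested on both knockout libraries: without SOX4 knockout library 1 there were 6 called members (CCDC80, COL16A1, COL2A1, EFEMP1, LUM and MMP7) and without library 2 there were 2 (CCDC80 and LUM), in fits where the lone knockout library is assumed to vary like the Hep3B libraries. Each of the 18 called members kept its direction in every such fit. The members' transcripts were richer in G and C than those of all genes tested (median 58.9% against 49.4%), and across genes the log2 fold change rose with GC content (Spearman correlation 0.25 over 14246 genes). With offsets for GC and transcript length 13 members were called, without AGRN, COL6A2, COL7A1, EFEMP2 and MMP7, and the members' median was 0.80.

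**Figure D1:**
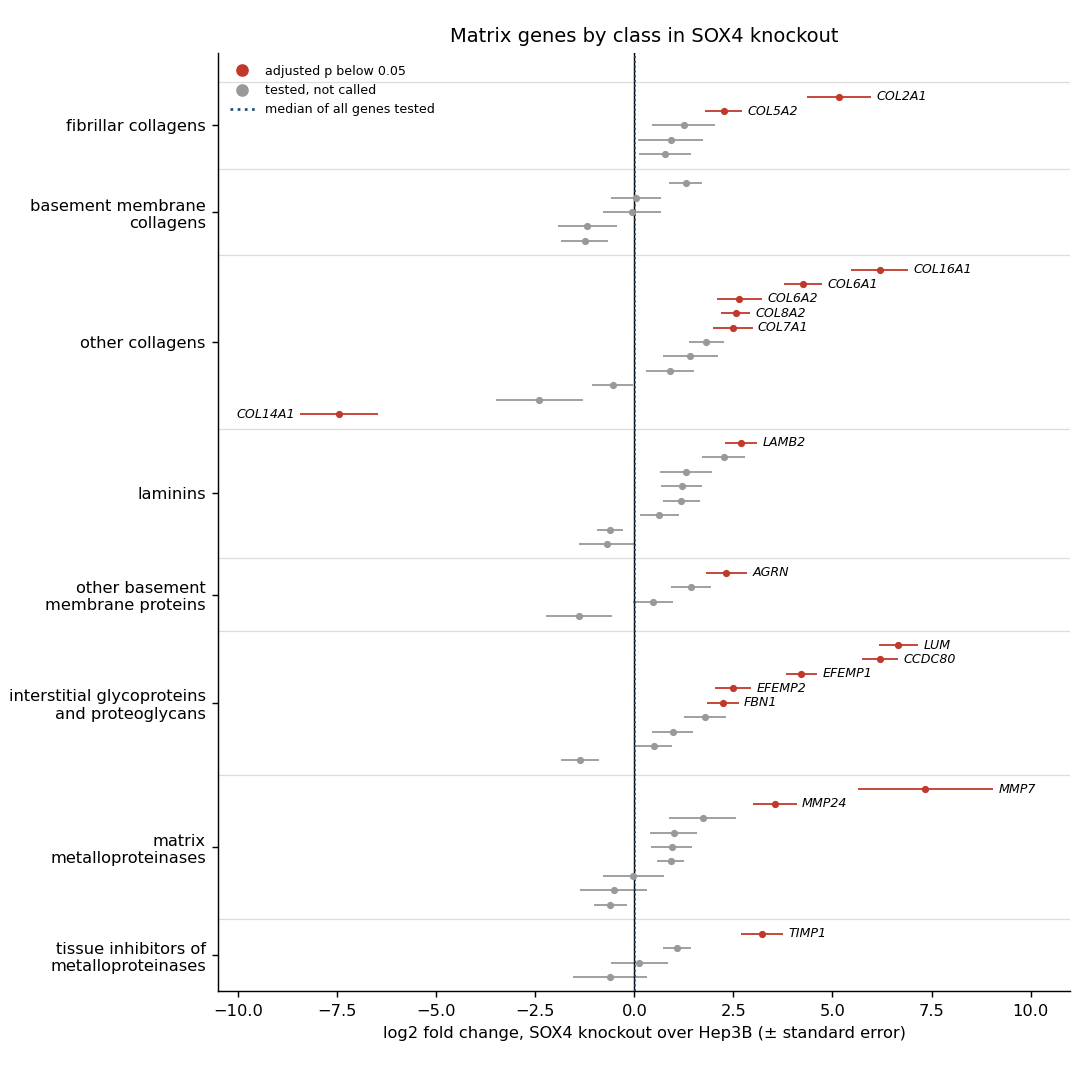
Log2 fold change of each tested matrix gene in SOX4 knockout over Hep3B (horizontal axis, points with standard error bars), grouped by class. Red points are the 18 members called at an adjusted p below 0.05, grey points were tested and not called, and the dotted line is the median of all genes tested. Red points lie to the right of 0 in 7 of 8 classes, none is in the basement membrane collagens, and COL14A1 alone is red on the left.

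Fibrillar collagens form the banded fibres of connective tissue. The knockout table held 7, of which 5 were tested, 2 rose and none fell, and all 5 had a positive log2 fold change with a median of 1.24. COL2A1 encodes the chain of type II collagen, the main collagen of cartilage. It stood at 0.341 and 1.42 CPM in Hep3B and at 17.2 and 47.1 CPM in SOX4 knockout. The knockout libraries were thus far above both controls but differed from each other, and the log2 fold change was 5.16 ± 0.81 (SE, edgeR adjusted p = 0.0216). COL5A2 encodes a chain of type V collagen, which starts and limits the growth of type I fibrils. Its level was 20.5 and 48.2 CPM in Hep3B and 167 and 160 CPM in SOX4 knockout, for a log2 fold change of 2.25 ± 0.46 (SE, edgeR adjusted p = 0.0381). COL1A1, a chain of the most abundant collagen of connective tissue, was low in every library, at 0.965 and 5.43 CPM in Hep3B and 5.83 and 9.35 CPM in SOX4 knockout, and was not called (log2 fold change 1.24 ± 0.79, SE). COL27A1 and COL11A2 had log2 fold changes of 0.78 and 0.92 and were not called. COL11A1 and COL24A1 had too few counts to be tested.

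No basement membrane collagen was called among the 5 tested, in which the median log2 fold change was -0.06. COL18A1, whose product is a heparan sulfate collagen of liver basement membranes and the source of endostatin, had the highest level of the class and is on the study's list of shared SOX4 and STAT6 targets. It read 249 and 143 CPM in Hep3B and 496 and 471 CPM in SOX4 knockout, so the groups did not overlap, but the log2 fold change of 1.30 ± 0.42 (SE) did not pass (edgeR adjusted p = 0.105). DESeq2 did call it. With offsets for GC content and length its edgeR log2 fold change was 0.75 and not called (edgeR adjusted p = 0.259). Exons of SLC19A1 on the other strand cover 16.4% of the COL18A1 exon bases, and whether counting used strand is not stated. COL4A1 and COL4A2, the chains of the common collagen IV network, stayed below 2 CPM in every knockout-table library, with log2 fold changes of 0.04 and -1.19. COL4A5 stood at 9.48 and 4.70 CPM in Hep3B and 3.48 and 2.42 CPM in SOX4 knockout (log2 fold change -1.26 ± 0.58, SE, not called), and COL4A4 at -0.06.

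Among the other collagens 5 rose and 1 fell of 11 tested. COL14A1 encodes collagen XIV, which coats the surface of collagen fibrils. It was at 173.7 and 28.5 CPM in Hep3B and at 0.682 and 0.440 CPM in the knockout libraries, which held 18 and 8 expected counts. Both control libraries were far above both knockout libraries, although they differed widely from each other, and the log2 fold change was -7.46 ± 0.98 (SE, edgeR adjusted p = 0.0152). Without Hep3B library 1 it was -5.69. COL16A1 belongs to the same family of fibril-associated collagens and went the other way, from 0.851 and 0.158 CPM to 36.2 and 37.6 CPM (log2 fold change 6.19 ± 0.72, SE, edgeR adjusted p = 0.0113). Its knockout libraries lay close together and its Hep3B libraries held 15 and 3 expected counts. COL12A1, a further fibril-associated collagen, read 10.9 and 7.54 CPM in Hep3B and 23.5 and 41.7 CPM in SOX4 knockout, without overlap but short of the threshold (log2 fold change 1.82 ± 0.45, SE, edgeR adjusted p = 0.0567).

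Collagen VI forms beaded microfilaments from chains encoded partly by neighbouring genes on chromosome 21. COL6A1, at chr21:45981749-46005050 of hg38, rose from 1.42 and 1.69 CPM to 35.5 and 24.0 CPM, and COL6A2, at chr21:46098119-46132850, from 1.02 and 1.48 CPM to 8.14 and 7.59 CPM. Their log2 fold changes were 4.25 ± 0.48 (SE, edgeR adjusted p = 0.0105) and 2.65 ± 0.56 (SE, edgeR adjusted p = 0.0414). Neither gene's groups overlapped. COL8A2 encodes a chain of the network-forming collagen VIII and read 8.0 and 7.44 CPM in Hep3B against 42.9 and 48.3 CPM in SOX4 knockout (log2 fold change 2.56 ± 0.37, SE, edgeR adjusted p = 0.0186). COL7A1, the collagen of the anchoring fibrils that tie epithelia to the tissue beneath, rose from 3.92 and 2.21 CPM to 17.2 CPM in both knockout libraries (log2 fold change 2.49 ± 0.50, SE, edgeR adjusted p = 0.0358). COL9A3, a cartilage collagen with the highest CPM among the other collagens, overlapped between groups at 247 and 90.2 CPM against 85.4 and 144.8 CPM, and its log2 fold change of -0.55 became 0.29 without Hep3B library 1.

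**Figure D2:**
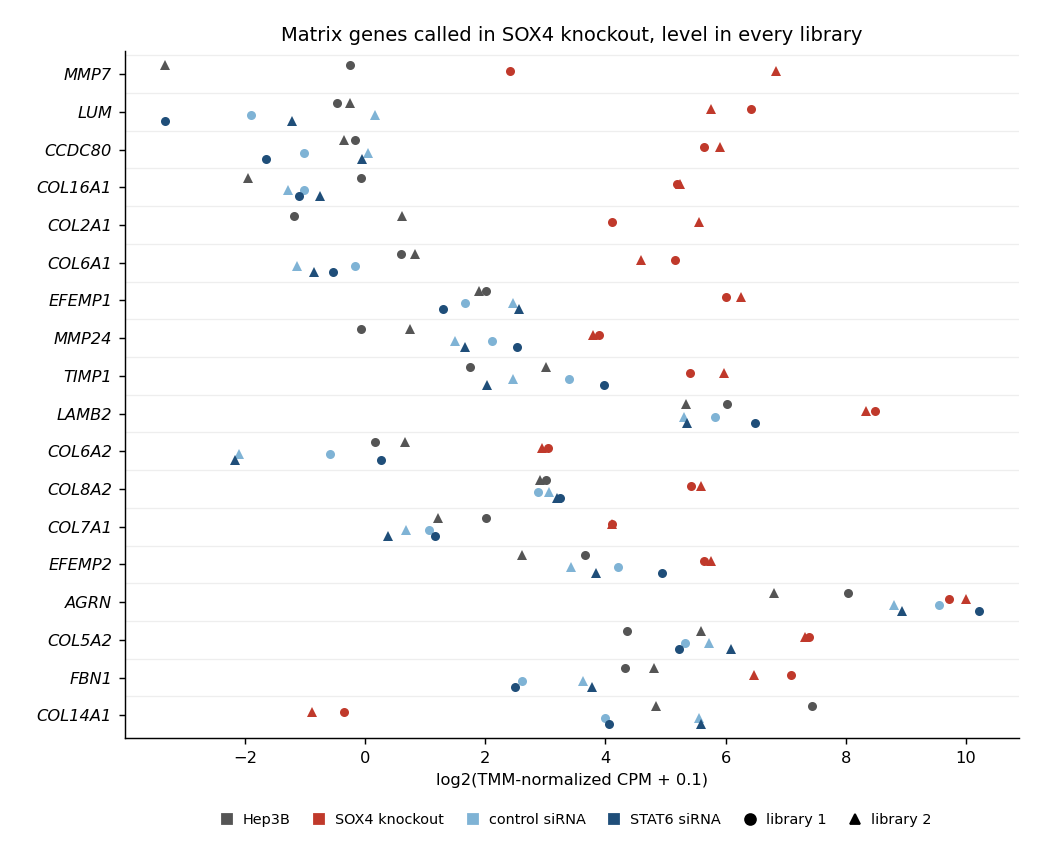
Level of the 18 matrix genes called in SOX4 knockout in each of the 8 libraries, as log2 of CPM plus 0.1 (horizontal axis), with colours for the groups and circles and triangles for libraries 1 and 2. Red symbols lie right of the grey ones in 17 genes and left of them in COL14A1, the siRNA groups overlap in every gene that has values in both except COL8A2, and MMP7 and COL2A1 have no values in the siRNA table.

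Interstitial glycoproteins and proteoglycans rose more often than they fell: 5 of 9 tested were called higher and none lower by edgeR, and the median log2 fold change was 2.23. Lumican is a small leucine-rich proteoglycan that spaces collagen fibrils. LUM, at chr12:91103455-91111766 of hg38, was at 0.624 and 0.739 CPM in Hep3B, from 11 and 14 expected counts, and at 85.5 and 54.2 CPM in SOX4 knockout. The group levels were 0.681 ± 0.081 and 69.9 ± 22.1 CPM (SD, n = 2), and the log2 fold change was 6.67 ± 0.50 (SE, edgeR adjusted p = 0.00384). CCDC80, at chr3:112604386-112641144, moved by a similar amount, from 0.794 and 0.686 CPM to 49.6 and 60.1 CPM (log2 fold change 6.20 ± 0.46, SE, edgeR adjusted p = 0.00384). Both genes were still called when either knockout library was left out.

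The fibulins EFEMP1 (fibulin-3) and EFEMP2 (fibulin-4) are secreted glycoproteins, and EFEMP2 is needed to build elastic fibres. EFEMP1 rose from 3.92 and 3.64 CPM to 64.0 and 76.6 CPM, with close replicates on both sides (log2 fold change 4.22 ± 0.40, SE, edgeR adjusted p = 0.00872). EFEMP2 rose from 12.5 and 6.01 CPM to 49.5 and 54.0 CPM (log2 fold change 2.48 ± 0.45, SE, edgeR adjusted p = 0.0286). The fibrillins are the backbone of the microfibrils on which elastic fibres assemble. FBN1 went from 19.9 and 27.9 CPM to 136 and 88.2 CPM (log2 fold change 2.23 ± 0.40, SE, edgeR adjusted p = 0.0275), and FBN2 read 47.6 and 104 CPM against 163 and 356 CPM without passing (log2 fold change 1.78 ± 0.53, SE, edgeR adjusted p = 0.0895). FBLN1, fibulin-1, had the opposite sign: 536 and 234 CPM in Hep3B lay above 131 and 167 CPM in SOX4 knockout, with a log2 fold change of -1.37 ± 0.48 (SE) that was not called (edgeR adjusted p = 0.126). DESeq2 called FBLN1 and FBN2, and so did edgeR without Hep3B library 2. BGN, the small proteoglycan biglycan, overlapped between the groups (32.2 and 65.8 CPM against 53.9 and 84.3 CPM).

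Fibronectin (FN1) joins cells to the matrix through integrins and had the highest level per kilobase of all members in every library except STAT6 siRNA library 1, where FBLN1 was higher. It stood at 2155 and 1548 CPM in Hep3B and 3792 and 3440 CPM in SOX4 knockout. The groups did not overlap, but the log2 fold change of 0.97 ± 0.51 (SE) was not called (edgeR adjusted p = 0.274). The make-up of that total was read per transcript. Hepatocytes secrete a plasma form of fibronectin that lacks the extra domains A and B (EDA and EDB), and cellular forms include one or both. Each domain is encoded by a whole exon that splicing keeps or skips, and of the 9 full-length FN1 transcripts in the deposited tables, 4 contain the EDA exon and 3 the EDB exon. The exons are printed because their share is the quantity compared. Both are read from GENCODE release 29 transcripts on GRCh38, in the sense direction of this minus-strand gene, and every letter is exon with no part set in capitals. The EDA exon spans chr2:215380811-215381080 (270 bases) and the EDB exon chr2:215392931-215393203 (273 bases).
FN1 EDA exon: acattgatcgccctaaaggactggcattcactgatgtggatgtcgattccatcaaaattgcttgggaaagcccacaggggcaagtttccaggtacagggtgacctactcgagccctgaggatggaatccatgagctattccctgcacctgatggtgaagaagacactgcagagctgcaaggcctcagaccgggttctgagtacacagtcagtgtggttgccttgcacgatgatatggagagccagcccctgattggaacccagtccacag
FN1 EDB exon: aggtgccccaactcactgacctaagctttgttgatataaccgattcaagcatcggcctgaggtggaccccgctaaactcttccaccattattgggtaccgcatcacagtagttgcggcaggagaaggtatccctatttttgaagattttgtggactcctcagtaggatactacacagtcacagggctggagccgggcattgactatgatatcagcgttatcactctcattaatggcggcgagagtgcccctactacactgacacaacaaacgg

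Transcripts with the EDA exon made up 47.0% and 58.6% of FN1 expected counts in Hep3B libraries 1 and 2, and 23.5% and 29.7% in SOX4 knockout. With the EDB exon the shares were 7.82% and 8.64% in Hep3B and 2.41% and 2.76% in SOX4 knockout. Both shares were lower in both knockout libraries than in any of the other 6 libraries. A share is not a level: all FN1 stood at 2155 and 1548 CPM in Hep3B and 3792 and 3440 CPM in SOX4 knockout. A lower share therefore need not mean a lower level of the transcripts with the exon. In the siRNA table the EDA share was 50.1% and 46.8% with control siRNA and 49.2% and 46.2% with STAT6 siRNA, and the EDB share 7.53% and 6.22% against 7.54% and 5.80%, so these groups overlapped. A two-sided exact permutation test of 2 libraries against 2 cannot give a p below 0.333, so no p is given for these shares. The library with the fewest FN1 counts held 29349, for which the 95% Wilson interval of the EDA share was 58.0% to 59.2%. Such intervals cover counting error alone and not the authors' division of reads among overlapping transcripts.

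**Figure D3:**
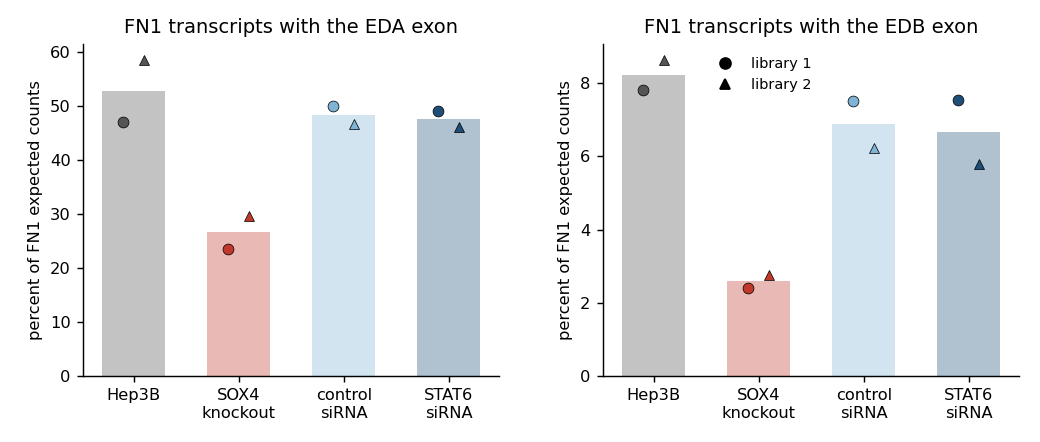
Percent of FN1 expected counts in transcripts that contain the EDA exon (left) or the EDB exon (right), with bars for the mean of 2 libraries and symbols for each library. The EDA share lies between 23.5% and 29.7% in SOX4 knockout and between 46.2% and 58.6% in the other 6 libraries, and the EDB share between 2.41% and 2.76% against 5.80% to 8.64%.

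Laminins are trimers of an alpha, a beta and a gamma chain, and beta 1 and beta 2 are alternatives in the same place. Of 8 chains tested 1 rose, none fell and the median log2 fold change was 1.19. That is 12.5% called, against 5.89% of all genes tested. LAMB2, laminin beta 2, rose from 64.9 and 40.5 CPM in Hep3B to 357 and 322 CPM in SOX4 knockout (log2 fold change 2.69 ± 0.40, SE, edgeR adjusted p = 0.0192). LAMB1, laminin beta 1, read 231 and 219 CPM in Hep3B and 142 and 152 CPM in SOX4 knockout, so both knockout libraries were lower, while the log2 fold change of -0.62 ± 0.33 (SE) was not called (edgeR adjusted p = 0.285). Per kilobase of transcript, LAMB2 was 0.283 and 0.187 of LAMB1 in Hep3B and 2.54 and 2.15 times LAMB1 in SOX4 knockout. The ratio was thus above 1 in both knockout libraries and below 1 in both Hep3B libraries. In the siRNA table it was 0.606 and 0.151 with control siRNA and 1.04 and 0.180 with STAT6 siRNA, which overlapped.

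The partners LAMC1 and LAMA5, the common gamma 1 chain and the alpha 5 chain of adult basement membranes, were higher in both knockout libraries without being called. LAMC1 stood at 622 and 282 CPM in Hep3B and 842 and 1231 CPM in SOX4 knockout (log2 fold change 1.20 ± 0.52, SE), and LAMA5 at 216 and 98.3 CPM and 406 and 308 CPM (1.18 ± 0.47, SE). LAMA3 and LAMB3, the alpha 3 and beta 3 chains, overlapped between the groups, with log2 fold changes of 0.63 and 1.30, and LAMA4 stayed at or below 2.39 CPM in all 8 libraries.

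**Figure D4:**
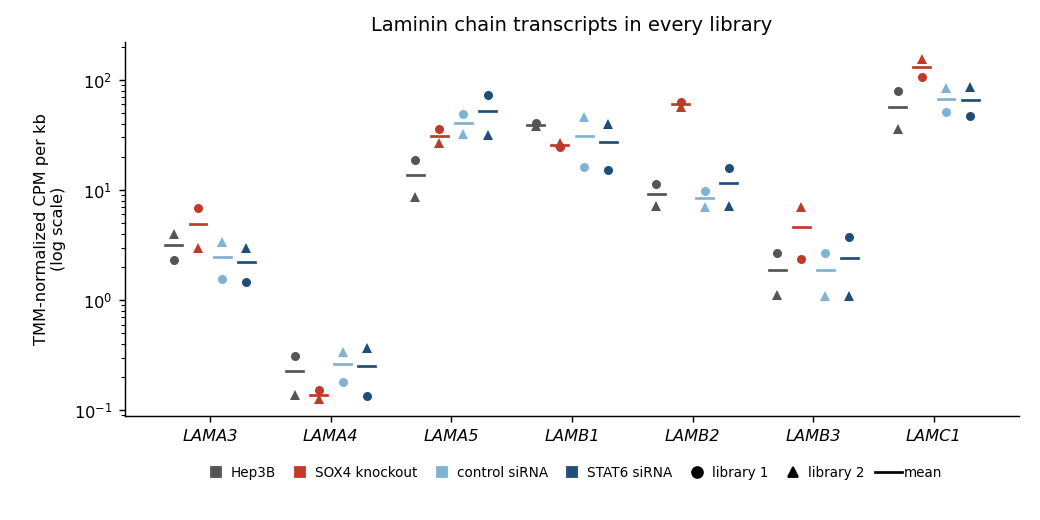
Level of 7 laminin chain transcripts as CPM per kilobase of transcript (vertical log axis) in each library, with colours for the groups, circles and triangles for libraries 1 and 2 and a bar at the group mean. The LAMB2 symbols of SOX4 knockout, at 62.8 and 56.8, lie above those of every other library, and the LAMB1 symbols of SOX4 knockout, at 24.7 and 26.5, lie below both Hep3B symbols.

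Of the other basement membrane proteins agrin rose. AGRN encodes a heparan sulfate proteoglycan best known for gathering receptors at the nerve-muscle synapse. It was at 262 and 112 CPM in Hep3B and at 840 and 1025 CPM in SOX4 knockout (log2 fold change 2.32 ± 0.52, SE, edgeR adjusted p = 0.0457), and was lost without Hep3B library 2 as well as without either knockout library, and its log2 fold change ran from 1.83 to 3.0 over the libraries left out. HSPG2, perlecan, had the highest CPM of the 4 proteins of this class. Its 608 and 309 CPM in Hep3B lay below 1006 and 1453 CPM in SOX4 knockout, and the log2 fold change of 1.42 ± 0.50 (SE) did not pass (edgeR adjusted p = 0.131). The nidogens link laminin to collagen IV. NID1 overlapped (483 and 189 CPM against 405 and 525 CPM) and NID2, whose exons are shared with RTRAF on the other strand over 30.0% of their bases, stayed below 4 CPM.

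Among 9 matrix metalloproteinases tested 2 rose and none fell, or 22.2% called against 5.89% of all genes tested. MMP24 encodes a membrane-type metalloproteinase. It rose from 0.851 and 1.58 CPM to 14.7 and 13.8 CPM (log2 fold change 3.54 ± 0.56, SE, edgeR adjusted p = 0.0216). Exons of MMP24OS on the other strand cover 18.1% of its exon bases, so reads of the pair could be mixed if counting ignored strand. MMP7, matrilysin, is a small secreted protease. It had 13 and 0 expected counts in Hep3B and 137 and 2085 in SOX4 knockout, or 0.738 and 0 CPM against 5.19 and 114.6 CPM. MMP7 could pass the filter only through the knockout libraries, and these differed from each other far more than for any other called gene. The log2 fold change of 7.35 ± 1.71 (SE) was barely called (edgeR adjusted p = 0.0494), and DESeq2 did not call MMP7. Its log2 fold change ran from 3.80 to 13.30 over the libraries left out. MMP14, which encodes the membrane-type protease that activates MMP2, had the highest CPM of the class and overlapped between groups, at 262 and 133 CPM against 143 and 117 CPM. MMP15 was higher in both knockout libraries (50.7 and 38.4 CPM against 83.3 and 84.5 CPM) but not called (edgeR adjusted p = 0.146). MMP11, MMP16, MMP17, MMP19 and MMP25 stayed at or below 15.0 CPM in the knockout table.

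Of the 4 inhibitors TIMP1 rose. TIMP1 inhibits most secreted metalloproteinases and went from 3.23 and 7.96 CPM to 42.1 and 62.9 CPM (log2 fold change 3.23 ± 0.53, SE, edgeR adjusted p = 0.0234). TIMP2, the inhibitor with the highest CPM, read 59.4 and 42.5 CPM in Hep3B and 105 and 111 CPM in SOX4 knockout, without overlap and without a call (log2 fold change 1.08 ± 0.35, SE, edgeR adjusted p = 0.106). TIMP3, which binds to the matrix itself, stayed below 1 CPM in the knockout table, and TIMP4 overlapped between groups at 1.70 and 7.49 CPM against 5.45 and 4.56 CPM.

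The sequence just before the start of each gene was read for short motifs, since called members moved together. RefSeq promoter entries on GRCh38.p14 matched 45 of the 61 members by symbol, 11 of the 18 called ones among them, and the 250 bases before the start were searched on both strands. ACAAAG, a core word of SOX factors, was in 13.7% of all 35116 promoters and in 0 of the 11 called members' windows. The STAT6 site, TTC and GAA set 4 bases apart, was in 5.38% of all promoters and in 0 of the 11. TATAAA, the TATA box word, was in 10.7% of all promoters and in 3 of the 11, namely COL6A2, COL7A1 and MMP7. Over all 45 matched members the SOX word was in 3 windows, the STAT6 site in 2 and the TATA box word in 4. In MMP7 and COL6A2 the TATA box word lay 25 and 27 bases before the start. In COL7A1 it lay 119 bases before the start, on the other strand. The windows of the first pair are shown because the word sits where a TATA box acts. Each is printed in the sense direction and ends at the base before the annotated start, with the motif in capitals. The MMP7 window is chr11:102530748-102530804 on the minus strand and the COL6A2 window chr21:46098053-46098111 on the plus strand.
MMP7: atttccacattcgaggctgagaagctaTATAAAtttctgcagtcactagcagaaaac
COL6A2: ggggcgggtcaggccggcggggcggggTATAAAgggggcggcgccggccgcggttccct

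A match or its lack describes these letters alone and says nothing of binding.

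Genes that make, receive or cut the matrix were described from lists written beside the members. Of 29 genes of collagen synthesis and cross-linking tested, 5 rose and 1 fell, with a median log2 fold change of 0.50. That is 20.7% called, against 5.89% of all genes tested. COLGALT2, a collagen galactosyltransferase, fell from 12.8 and 15.8 CPM to 1.29 and 0.935 CPM (log2 fold change -3.67, edgeR adjusted p = 0.0186). CRTAP, part of the complex that hydroxylates collagen prolines, rose from 10.2 and 13.5 CPM to 66.0 and 58.2 CPM (2.39), and PCOLCE2, an enhancer of procollagen trimming, from 6.87 and 4.85 CPM to 32.6 and 28.5 CPM (2.38). Of 24 tested matrix receptors 6 rose and none fell, with a median of 1.46, where 4.50% of all genes tested were called higher. The 6 included integrin beta 6 (ITGB6), at 0 CPM in both Hep3B libraries and 1.82 and 0.935 CPM in SOX4 knockout, and CD44. ITGB6 and CD44 were nearly silent in Hep3B, could not pass the filter without the knockout libraries and so had to differ. Integrin alpha 3 (ITGA3), a laminin receptor chain, went from 0.511 and 2.59 CPM to 73.2 and 89.0 CPM (log2 fold change 5.70, edgeR adjusted p = 0.0148). Integrin beta 3 (ITGB3) went from 1.48 and 0.738 CPM to 20.5 and 11.3 CPM and the hyaluronan receptor CD44 from 0.568 and 0 CPM to 9.58 and 16.1 CPM. Of 25 other extracellular proteases and inhibitors tested 1 rose and 1 fell, or 8.0% called, near the 5.89% of all genes tested. Heparanase (HPSE) rose from 9.76 and 5.33 CPM to 37.8 and 24.1 CPM, ADAMTS1, a proteoglycan-cutting protease, fell from 11.2 and 14.3 CPM to 2.12 and 3.46 CPM, and ADAM8 was not called.

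STAT6 siRNA gave no call among the matrix genes. Of 46 tested members 0 were called against 0.00% of the 13554 genes tested (edgeR's quasi-likelihood test, Benjamini-Hochberg adjusted), and 1 had an unadjusted p below 0.05. DESeq2 also called 0, with 1 at an unadjusted p below 0.05. The standard errors of the tested members ran from 0.54 to 1.09 on the log2 scale in this fit. STAT6 itself, the target of the siRNA, was not called either, so the lack of calls does not show a lack of response. Both STAT6 siRNA libraries lay above both control siRNA libraries for 5 of 46 members and below them for 0, against 2.74% and 5.26% of all genes. COL1A1, COL4A2, COL8A2 and TIMP3 were among the 5. The median log2 fold change was 0.24 over members and -0.03 over all genes. The members' GC content was again above that of all genes (59.2% against 49.6%), the log2 fold change rose with GC content across genes (Spearman correlation 0.60 over 13409 genes), and with offsets for GC content and length the members' median was 0.04.

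In the siRNA table the levels split by library number more than by treatment. LAMB1 read 93.5 CPM in control siRNA library 1 and 87.5 in STAT6 siRNA library 1, but 263 and 228 CPM in the libraries numbered 2. COL14A1 did the same, at 15.8 and 16.6 CPM in the libraries numbered 1 and 47.0 and 48.0 CPM in those numbered 2, and its log2 fold change was 0.04 ± 0.76 (SE). AGRN went the other way, at 746 and 1182 CPM in the libraries numbered 1 and 444 and 489 CPM in those numbered 2 (log2 fold change 0.49 ± 0.61, SE). COL8A2 was the sole member with at least 100 counts per library on average and no overlap, at 7.24 and 8.22 CPM with control siRNA and 9.33 and 8.99 CPM with STAT6 siRNA (log2 fold change 0.25 ± 0.72, SE). COL18A1 stood at 605 and 404 CPM with control siRNA and 904 and 452 CPM with STAT6 siRNA, overlapping, for a log2 fold change of 0.43 ± 0.59 (SE). FN1 differed by -0.01 ± 0.56 (SE). TIMP3 had the lowest p of the members at very low levels, 0.0565 and 0.311 CPM against 0.661 and 1.65 CPM (log2 fold change 2.58 ± 0.99, SE, unadjusted p = 0.0207, edgeR).

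The effects of the perturbations were then compared in a fit of all 8 libraries. The difference, knockout effect minus siRNA effect, was called for 3 of 53 members against 0.0769% of the 14313 genes tested (edgeR's quasi-likelihood test, Benjamini-Hochberg adjusted). These were LUM (8.21 ± 1.32, SE, on the log2 scale), CCDC80 (6.34 ± 1.02, SE) and COL14A1 (-7.58 ± 1.25, SE), with adjusted p of 0.0366, 0.0366 and 0.0422. LUM was barely counted in the siRNA table, at 0.170 and 1.02 CPM with control siRNA and 0 and 0.330 CPM with STAT6 siRNA, and it was not tested there on its own. CCDC80 read 0.396 and 0.933 CPM against 0.220 and 0.867 CPM there. No member was called in this contrast without Hep3B library 1 or without either knockout library, and COL14A1 alone without Hep3B library 2. Of the other members called in SOX4 knockout, COL2A1 and MMP7 were absent from the siRNA table and so were not tested in this fit. The rest were tested and did not pass. The difference was 5.78 ± 1.10 (SE, edgeR adjusted p = 0.0727) for COL16A1. For EFEMP1 it was 4.17 ± 0.86 (SE, edgeR adjusted p = 0.102) and for LAMB2 2.12 ± 0.76 (SE, edgeR adjusted p = 0.495). With the library number as a block, COL16A1, COL6A1 and EFEMP1 were called as well. The comparisons share no library.

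**Figure D5:**
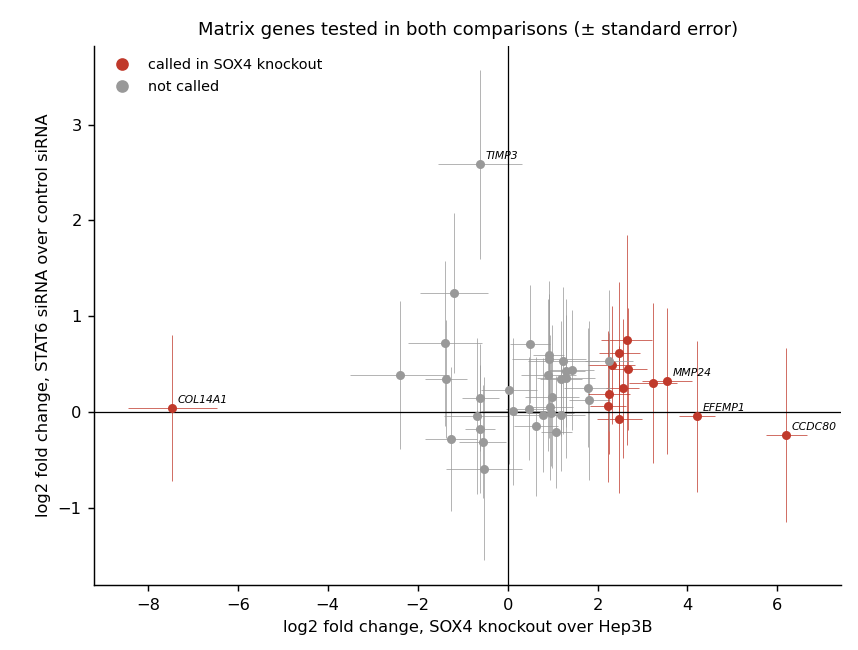
Log2 fold change of the 46 matrix genes tested in both comparisons, for SOX4 knockout over Hep3B (horizontal) and STAT6 siRNA over control siRNA (vertical), with standard errors. Red points, called in SOX4 knockout, spread from -7.46 to 6.20 on the horizontal axis and from -0.24 to 0.75 on the vertical axis, and no point is called on the vertical axis.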

How the data were processed

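RNA-seq was analysed in 8 Hep3B libraries, 2 in each of 4 groups, assigned from their labels. Libraries were made with a stranded mRNA kit per the labels. For each comparison a table was deposited of expected counts (fractional estimates of the reads from each RefSeq transcript), not normalized. The submitters' processing notes name STAR, Partek and hg38; versions, quantifier, annotation and strand setting are not given in the sources used here. Every transcript summed to at least 10 over its table, so transcripts below that were left out upstream. Gene names turned into dates, 19 per table, were told apart by chromosome. All columns belonged to a sample.

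Counts were summed per gene and rounded, and the comparisons were fitted separately (R 4.3.3; edgeR 4.0.16 with filterByExpr, TMM, dispersion estimation, glmQLFit and glmQLFTest), with Benjamini-Hochberg adjustment over all genes tested and a threshold of 0.05. The fits were also run on simulated data with known changes. Their power at the spread of these data is not reported here. The difference between effects was a contrast over 8 libraries. Alternatives were RLE and upper-quartile factors, DESeq2 1.42.0, other count filters, GC content and length offsets (mgcv 1.9.3, GENCODE release 29), the library number as a block, another glmQLFit setting, and leaving out each library. CPM per kilobase used GENCODE lengths.

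Members, classes and lists were chosen with earlier results of these data known. Named members were the 16 called ones of lowest p, the member of highest mean CPM in each class, siRNA members beyond both controls with at least 100 counts on average, and COL18A1. AGRN, MMP7, TIMP3, other members and the FN1 exons were described after their values were seen. From each list of other genes the 3 of lowest p were named. The values of 1 member are not reported here, although it stays in the counts and medians over members.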

Additional observations from a re-analysis of the deposited data

Results flagged for a closer look

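For 3 matrix genes the effect of SOX4 knockout differed from that of STAT6 siRNA in a test of the difference itself (edgeR's quasi-likelihood test of the contrast in all 8 libraries, Benjamini-Hochberg adjusted over 14313 genes). The difference, knockout effect minus siRNA effect, was 8.21 on the log2 scale for LUM and 6.34 for CCDC80, each with an adjusted p of 0.0366, and -7.58 for COL14A1 with an adjusted p of 0.0422. LUM and CCDC80 were higher in 2 of 2 knockout libraries than in both Hep3B libraries, and COL14A1 was lower in 2 of 2. In the siRNA table the libraries of both groups overlapped for all 3. The differences ran from 6.39 to 13.33 for LUM, from 5.59 to 7.65 for CCDC80 and from -8.56 to -5.79 for COL14A1 over the fits that each omit 1 library, and leaving out Hep3B library 1 or either knockout library ended all 3 calls.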

How the results depend on the processing

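In SOX4 knockout the number of called members stayed within 13 to 24 of the 18 called in the comparison as reported under other normalizations, DESeq2, other filters, offsets for GC content and length, the fit of all 8 libraries, another glmQLFit setting and the omission of either Hep3B library. Leaving out each library in turn gave 2 to 24 in SOX4 knockout, 0 in each case with STAT6 siRNA and 0 to 6 for the difference between effects. COL9A3 had a log2 fold change of -0.55 in SOX4 knockout, with a range of -1.11 to 0.29 over the libraries left out, the highest without Hep3B library 1. The glmQLFit setting legacy = TRUE is the default of this version and so equals the reported fit, and legacy = FALSE was added after seeing the data. The cause of these changes was not tested, except that the filter of at least 10 counts in every library leaves fewer members to test (45 against 55). Over all genes 849 were called in SOX4 knockout, against 2122 with DESeq2, 518 with at least 10 counts in every library, 481 with GC content and length offsets, 65 with these and the block, and 21 to 2298 over the libraries left out. No call of the siRNA comparison was gained under another normalization, filter or tool.

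Libraries share numbers across groups, and nothing states that a number marks a shared culture or day. Deviations of same-numbered libraries correlated at -0.085 for the knockout comparison and 0.873 for the siRNA comparison, over 2 pairs each. With a replicate block for the number, 18 members were called in SOX4 knockout (without MMP7, with FBN2) and 1 with STAT6 siRNA (TIMP3). For the difference 6 were called, with COL16A1, COL6A1 and EFEMP1 gained. A replicate block with GC content and length offsets called 6 in SOX4 knockout and 2 with STAT6 siRNA (TIMP3 and COL9A3), and the siRNA log2 fold change of COL8A2 was then -0.005. Over all genes the block moved the calls with STAT6 siRNA from 0 to 62, and with offsets to 373.

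The ratio of siRNA libraries numbered 2 over 1 fell as GC content rose (Spearman correlation -0.754 with control siRNA and -0.818 with STAT6 siRNA across 13409 genes). Genes at under 1 CPM in a group, LUM, CCDC80, COL16A1, MMP7 and COL14A1 among them, have fold changes set by a few counts.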
